A study of Mus musculus with 4 samples.

Results

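The cells described here carried mRNA of Etv2 together with other genes of the endothelial program, in the Tbx1 lineage of the mouse embryo. They were chosen by measured values: at least 1 UMI (a unique molecular identifier, counted once per captured transcript) of Etv2, at least 1 UMI of Kdr, at least 2 of Tal1, Lmo2, Gata2 and Fli1 detected, and no UMI of Epcam. There were 611 such cells among 35228 cells that had at least 3000 detected genes and at most 10% mitochondrial UMIs, or 1.73% of them. They were set against 1511 mature endothelial cells, selected on having no UMI of Etv2 and at least 4 of Pecam1, Cdh5, Tek, Emcn, Cldn5 and Esam detected. The study addressed how loss of the H3K4 methyltransferase gene Kmt2d changes the transcriptome of this lineage. GFP-positive, DAPI-negative cells were sorted from the pharyngeal region and heart of E9.5 embryos, labelled outbred SwissWebster and described in the study's methods as kept on mixed C57BL/6 and Swiss Webster stock. The cHet group was Tbx1Cre/+; Kmt2d F/+; GFP F/+ and the cKO group was Tbx1Cre/+; Kmt2d F/F; GFP F/+. Cre is knocked into Tbx1, so embryos of both groups carried 1 functional copy of Tbx1, and the cells seen are those in which this Cre had acted. Each genotype had 2 libraries, made from pools of 4 embryos with the Next GEM kit in Rep1 and of 3 embryos with the GEM-X kit in Rep2. The cells cannot be traced to single embryos, and every n below counts libraries (n = 2 in each genotype).

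Etv2 encodes an ETS transcription factor that starts the endothelial and blood programs in mesoderm, and it is switched off as vessels mature. It acts with GATA and SCL/Tal1 factors on genes such as Kdr, the main VEGF receptor, Tal1, Lmo2 and Fli1, after which Fli1, Erg and other ETS factors keep the endothelial state. Tal1 and Lmo2 also serve the blood lineage, while Pecam1, Cdh5 (VE-cadherin), Tek (the angiopoietin receptor) and Cldn5 mark formed endothelium. Cells of the cardiopharyngeal mesoderm, which Tbx1 marks, give rise to heart, head muscle and part of the endothelium of the pharyngeal arches.

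The libraries held between 179454146 and 234726019 UMIs, and 6238 cells were kept from cHet Rep1, 6660 from cKO Rep1, 9743 from cHet Rep2 and 12587 from cKO Rep2. Sets of 4 values below follow this order. In cHet Rep1 the cells kept held 65.8% of the UMIs, against 96.1% to 97.2% in the other libraries. The cells kept shared 12 barcodes between both libraries of Rep1, 46 between those of Rep2 and 0 between replicates. There were 187, 113, 160 and 151 Etv2-positive cells, whose median depth was 23701, 31708, 23040 and 19015 UMIs. There were 306, 193, 434 and 578 mature cells, whose median depth was 20436, 27194, 20586 and 16490 UMIs. Summed over the Etv2-positive cells of a library, 4858144, 3797392, 3932284 and 3057476 UMIs were available. A level is given below in CPM, counts per 1000000 UMIs of these sums, and as a mean over the 4 libraries where stated.

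Etv2, on chromosome 7 (GRCm38, 30633616 to 30635852, minus strand), was measured at 241, 195, 329 and 371 CPM in the cells selected on it. Those cells held 66.9%, 76.0%, 82.3% and 76.6% of all Etv2 UMIs of the cells kept. Among non-endothelial cells (Kdr at 0 and at most 1 of the 6 mature markers), 2.52%, 1.79%, 0.758% and 0.780% had an Etv2 UMI, at medians of 17446 to 23164 UMIs per cell. Among all endothelial cells (at least 4 of the 6 markers, Etv2 not considered), 32.2%, 34.8%, 20.9% and 16.4% had one. The endothelial share exceeded the share in non-endothelial cells in every library, while the non-endothelial share was higher in Rep1 than in Rep2. In all, 1186 cells kept had an Etv2 UMI, of which 391 had no Kdr UMI, 138 had Kdr but under 2 of the 4 factors, and 46 were left out for Epcam.

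The other genes of the rule describe the selected cells. Tal1 was at 110, 113, 166 and 230 CPM in Etv2-positive cells and at 30.8, 30.4, 46.8 and 49.0 CPM in mature cells. Lmo2, the LIM-domain partner of Tal1, was at 213, 209, 616 and 726 CPM against 141, 180, 282 and 291 CPM. The rule selected on both genes, which favors this direction. Kdr went the other way in every library, with 311, 302, 594 and 575 CPM against 358, 368, 701 and 715 CPM. Fli1 (345 to 706 CPM against 334 to 598 CPM) and Gata2 (13.2 to 38.9 CPM against 12.5 to 24.0 CPM) were above mature cells in every library by less, with log2 ratios of 0.04 to 0.23 and 0.06 to 0.67, in the direction that the selection on them favors. All 6 mature markers were lower in Etv2-positive cells in every library, from Cldn5 (median log2 ratio -0.26) to Pecam1 (-1.41). Mature cells were selected on at least 4 of these 6 genes, so this direction is set in part by the rule.

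At the edges of the rule, 161 cells had exactly 2 of the 4 factors, and 98 cells outside the rule, with Etv2 and Kdr and without Epcam, had exactly 1. Egfl7, an endothelial secreted factor that the rule did not use, was detected in 83.2% of the former and 53.1% of the latter, and Cdh5 in 58.4% and 11.2%. Hopx was detected in 39.1% and 46.9%. Of cells with exactly 1 Kdr UMI there were 26, and Egfl7 was detected in 84.6% of them. In the 36 cells that met the rule but for having no Kdr UMI, it was detected in 58.3%. The 46 cells left out for Epcam, an epithelial adhesion gene, had Tal1 in 73.9%, Hopx in 73.9% and Egfl7 in 95.7% of cells.

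The label "progenitor" held for only part of these cells. Of the 611 cells, 439 (71.8%) themselves had at least 4 of the 6 mature markers, at 73.3%, 79.6%, 68.8% and 67.6% by library, while 98 had 1 to 3 and 74 (12.1%) had none. They are therefore called Etv2-positive cells below. Etv2 was counted at 1 UMI in 217 cells, at 2 to 4 UMIs in 157 and at 5 or more in 237, with at least 10 in 152 and highest counts of 49, 63, 72 and 34. Cells with 1 Etv2 UMI had a mean of 5.52, 5.46, 4.86 and 5.11 of the 6 mature markers, close to the mature cells at 5.59, 5.80, 5.81 and 5.75. The means of the mature cells are set in part by their selection on at least 4 of the 6. Cells with 5 or more had a mean of 2.68, 3.12, 2.87 and 3.01. These groups of means did not overlap, and the medians of UMIs per cell were similar, at 17991.5 to 32266.5 for 1 Etv2 UMI and 19431 to 28486 for 5 or more. After every cell was thinned to 8000 UMIs and chosen anew, the means were 4.38, 4.04, 4.45 and 4.47 for 1 Etv2 UMI and 1.56, 1.39, 1.60 and 2.08 for 5 or more. Of the 74 cells with none of the 6 markers, 50 had 5 or more Etv2 UMIs, against 110 of the 439 cells with at least 4.

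**Figure D1:**
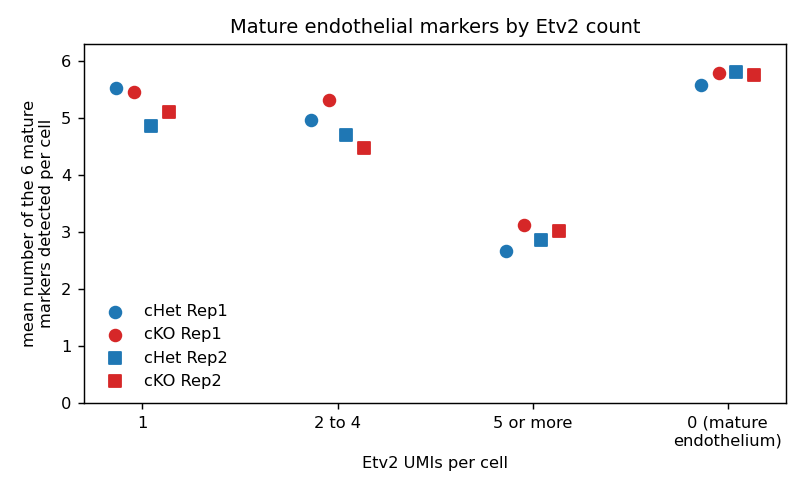
Mean number of the 6 mature endothelial markers detected per cell (y axis, 0 to 6) by the number of Etv2 UMIs in the cell (x axis), 1 point per library, with cHet in blue, cKO in red, Rep1 as circles and Rep2 as squares. Cells with 5 or more Etv2 UMIs sit between 2.68 and 3.12 in the 4 libraries, below the cells with 1 Etv2 UMI (4.86 to 5.52) and the mature cells (5.59 to 5.81). The mature cells had at least 4 by selection.

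Across the 3 classes of Etv2 count, genes of the mature endothelium were lower where Etv2 was higher. Pecam1 averaged 148 CPM in cells with 1 Etv2 UMI, 88.0 CPM with 2 to 4 and 18.6 CPM with 5 or more, and Cdh5 averaged 290, 207 and 40.4 CPM. The flow-responsive factor Klf2 averaged 159, 60.2 and 17.1 CPM, and Aplnr, the apelin receptor of veins and sprouting vessels, 112, 66.2 and 11.5 CPM. Of 16 other endothelial surface and junction genes with at least 100 UMIs over the Etv2-positive cells, 13 (81.3%) were lower in the highest class than in the lowest in all 4 libraries and 1 (Egfl7) was higher. Over all 9711 genes with that many UMIs, 17.5% were lower and 22.1% higher in all 4 libraries. The tip cell and sprouting genes were lower for 8 of 11, and the venous genes for 4 of 5.

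Endothelial transcription factors went both ways with Etv2. Of those that the rule did not use, 6 of 21 (28.6%) were higher in the highest class in all 4 libraries and 8 (38.1%) were lower. Over all genes with at least 100 UMIs, 22.1% were higher and 17.5% lower. The 8 lower factors were Ets1, Ets2, Mef2c, Klf2, Klf6, Bcl6b, Epas1 and Lyl1, with median log2 ratios from -0.31 (Mef2c) to -3.02 (Klf2). Tal1, which the rule used, averaged 57.5, 122 and 261 CPM over the classes, and Lmo2, also used, averaged 251, 340 and 627 CPM. Hhex, a homeobox factor of early endothelium and blood progenitors, averaged 76.0, 107 and 143 CPM. Sox17, an arterial and hemogenic SOX factor, averaged 105, 131 and 158 CPM, and Prox1, the factor that sets lymphatic identity and is also used in heart, averaged 20, 30.4 and 52.6 CPM. Tal2, a paralog of Tal1, was sparse, at 0.968, 4.67 and 9.77 CPM. Kdr (420, 387 and 489 CPM) and Egfl7 (501, 656 and 582 CPM) differed less between the classes than Tal1, Lmo2, Hhex, Sox17, Prox1 or Tal2. The classes were set by Etv2 in the same cells, so these values are given as a description, and no test was made.

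**Figure D2:**
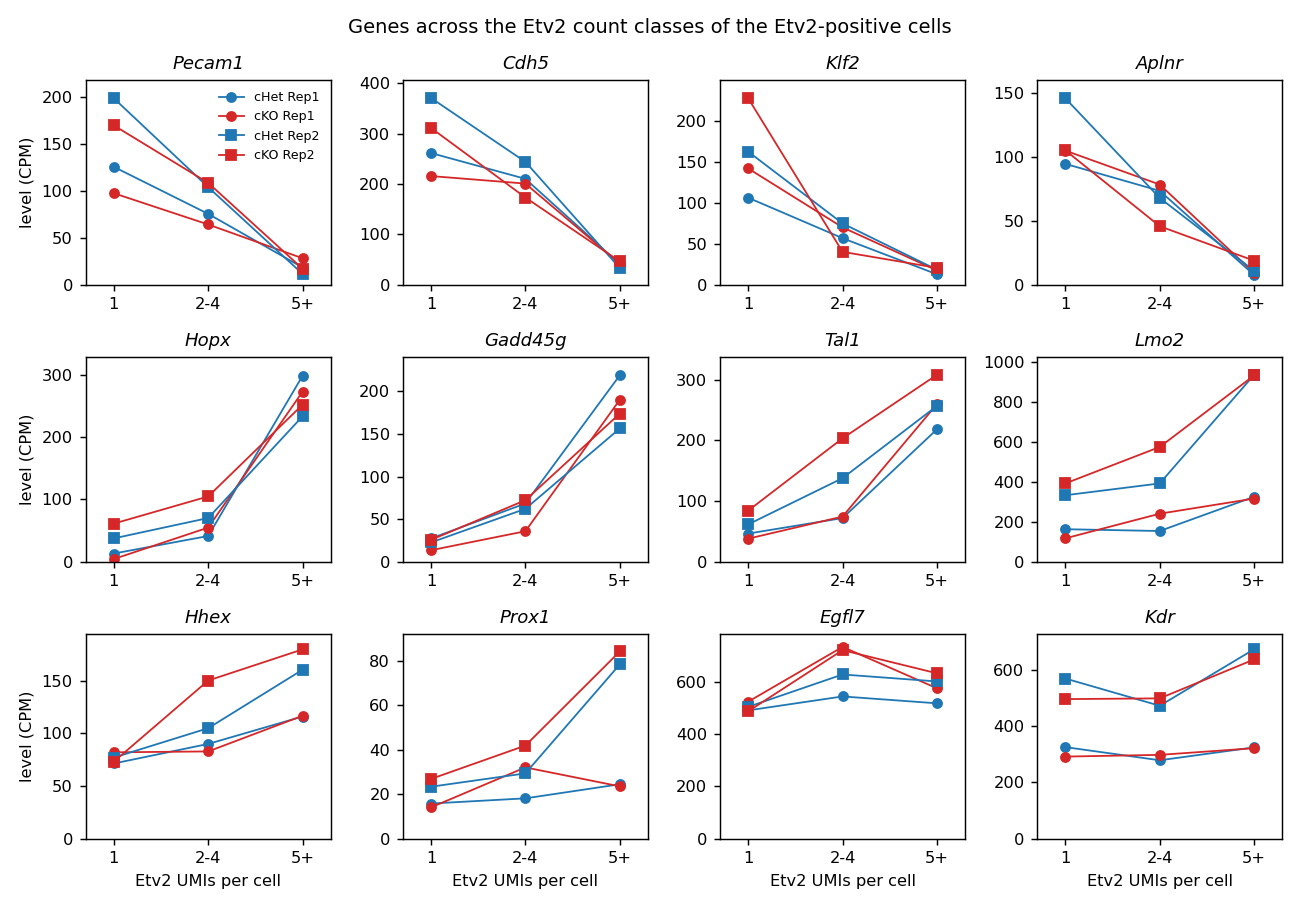
Level in CPM (y axis, from 0, a separate scale for each gene) of 12 genes by Etv2 UMIs per cell (x axis: 1, 2 to 4, 5 or more), with 1 line per library, cHet in blue, cKO in red, Rep1 as circles and Rep2 as squares. Pecam1, Cdh5, Klf2 and Aplnr drop in all 4 libraries toward 5 or more Etv2 UMIs, Hopx, Gadd45g, Tal1 and Lmo2 climb, and Egfl7 and Kdr stay near the same level.

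The 74 Etv2-positive cells with none of the 6 mature markers were described further. Averaged over libraries, they had Etv2 at 605 CPM, Tal1 at 149 CPM, Lmo2 at 337 CPM, Hhex at 54.1 CPM and Sox17 at 29.2 CPM. Etv2, Tal1 and Lmo2 were used to select them. Of Hhex and Sox17, which were not, non-endothelial cells had at most 0.738 and 0.553 CPM in any library. Egfl7 was at 132 CPM in these cells, at 479 CPM with 1 to 3 markers and at 663 CPM with 4 to 6, while Fli1 was at 165, 513 and 573 CPM, against 128 to 189 CPM in non-endothelial cells. In the same order, genes of cardiopharyngeal mesoderm went down: Isl1, a second heart field factor, was at 189, 66.2 and 14.3 CPM, and Fgf10, a second heart field ligand, at 68.1, 39.9 and 6.69 CPM. Cdh11, a mesenchymal cadherin listed with the endocardial genes, was at 483, 260 and 69.5 CPM. Meis1, a homeobox factor listed with the endothelial transcription factors, was at 236, 122 and 36.7 CPM. The summed level of the 24 cardiopharyngeal genes was 1365 to 1796 CPM in cells without mature markers, 622 to 694 CPM in cells with at least 4, and 1707 to 2438 CPM in non-endothelial cells. Ebf1 had the most UMIs of this list over the Etv2-positive cells, 6458, against 680 for Isl1 and 303 for Fgf10. The summed cardiac muscle genes were at 194 to 1358 CPM in cells without mature markers and at 28.9 to 187 CPM in cells with at least 4. The branchiomeric muscle genes were at 63.3 to 99.8 and 6.23 to 19.2 CPM. Whether a barcode without mature markers held 1 cell or a mixture of cells was not tested. By Scrublet score, 11.8%, 15.04%, 14.4% and 13.2% of the Etv2-positive cells were among the doublets expected for the kit. Of the mature cells, 14.7%, 9.33%, 8.07% and 7.44% were. Of all barcodes with at least 3000 genes, 5.78%, 5.38%, 4.03% and 5.06% were.

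For the comparison with mature endothelium, a gene was called where the ratio of TMM-scaled CPM was over 2-fold the same way in all 4 libraries. Both populations were selected on expression, so no p-value is given. Of 11952 genes tested that the rule did not use, 155 (1.3%) were higher and 47 (0.393%) lower in Etv2-positive cells, or 1.69% either way. Of the 155 genes, 22 were also over 2-fold above the non-endothelial cells in all 4 libraries, 12 were over 2-fold below them and 121 lay between. Of the 47 lower genes, 25 were still over 2-fold above the non-endothelial cells.

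Hopx led the higher genes with a level of at least 20 CPM. It lies on chromosome 5 (GRCm38, 77086988 to 77115121, minus strand) and encodes an atypical homeodomain protein of early heart and other progenitors. Its level was 115, 96.4, 132 and 175 CPM in Etv2-positive cells, 4.16, 3.51, 5.65 and 7.39 CPM in mature cells, and 12.3, 9.96, 9.10 and 9.64 CPM in non-endothelial cells. The ratio to mature cells was 4.57 on the log2 scale (median, 4.44 to 4.69 over the libraries), the narrowest range among the higher genes named. Across the Etv2 classes it averaged 29.0, 67.6 and 264 CPM. With only those Etv2-positive cells that had at least 4 of the 6 mature markers, a choice made after seeing the data, the median log2 ratio was 3.89 (2.86 to 4.00).

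Since Etv2 binds the ETS core GGAA and Hopx ran with it, the promoter windows of both genes are shown, from RefSeq on GRCm38.p6, 5′ to 3′ on the minus strand from 250 bases before to 50 bases after a gene start. Capitals mark the letters AGGAAG, searched on both strands.
Etv2, chr7:30635803-30636102: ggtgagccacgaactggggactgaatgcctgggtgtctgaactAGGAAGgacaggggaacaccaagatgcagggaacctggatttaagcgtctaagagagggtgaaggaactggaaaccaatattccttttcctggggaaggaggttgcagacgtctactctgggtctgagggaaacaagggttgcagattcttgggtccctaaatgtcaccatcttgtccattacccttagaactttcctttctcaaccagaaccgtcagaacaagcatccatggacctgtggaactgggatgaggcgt
Hopx, chr5:77115074-77115373: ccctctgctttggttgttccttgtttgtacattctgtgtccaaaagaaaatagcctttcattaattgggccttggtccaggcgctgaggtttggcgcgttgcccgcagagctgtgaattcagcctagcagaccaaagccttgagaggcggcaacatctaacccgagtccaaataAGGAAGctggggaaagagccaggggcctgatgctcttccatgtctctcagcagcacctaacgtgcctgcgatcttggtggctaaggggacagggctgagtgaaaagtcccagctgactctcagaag
Each window held 1 match, and the window of a second Hopx start (chr5:77095218-77095517) held 0. The letters occurred in 35.4% of 32851 windows of all genes and 32.5% of 11972 windows of the genes tested. They were in 25.7% of 167 windows of the higher genes and in 42.9% of 49 windows of the lower genes. A match describes these letters and is not evidence of binding.

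Gadd45g, a growth arrest and stress gene, was at 102, 71.1, 91.5 and 117 CPM against 17.1, 14.8, 9.67 and 8.71 CPM in mature cells (median log2 ratio 2.86), and it averaged 22.2, 59.7 and 185 CPM over the Etv2 classes. Pla2g7, which encodes the platelet-activating factor acetylhydrolase, was at 31.1, 19.0, 48.6 and 71.6 CPM against 4.44, 2.28, 4.46 and 3.64 CPM (3.10). Dusp4, a phosphatase of MAP kinases, was at 20.6, 19.0, 51.9 and 50.7 CPM against 6.02, 8.26, 10.4 and 11.2 CPM (1.92). Hopx, Gadd45g, Pla2g7 and Dusp4 were the named higher genes that were also over 2-fold above non-endothelial cells in every library. Pdgfa, a PDGF ligand (2.22), and Btbd11 (2.76) were above those cells by a median log2 ratio of 1.43 and 1.38. The remaining named genes were within 2-fold of the non-endothelial cells by their median. Tafa2, a secreted factor (2.82), the embryonic troponin Tnni1 (2.58), the reelin adaptor Dab1 (2.21), the transmembrane collagen Col25a1 (2.21) and the imprinted Notch-family protein Dlk1 (2.19) were of this kind. When the Etv2-positive cells were limited to those with at least 4 mature markers, 25 genes were called higher, of which 22 were among the 155. Hopx, Pla2g7, Gadd45g, Tafa2, Dab1, Col25a1 and Prox1 were among the 22, and Btbd11, Tnni1, Pdgfa, Dlk1 and Dusp4 were not.

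**Figure D3:**
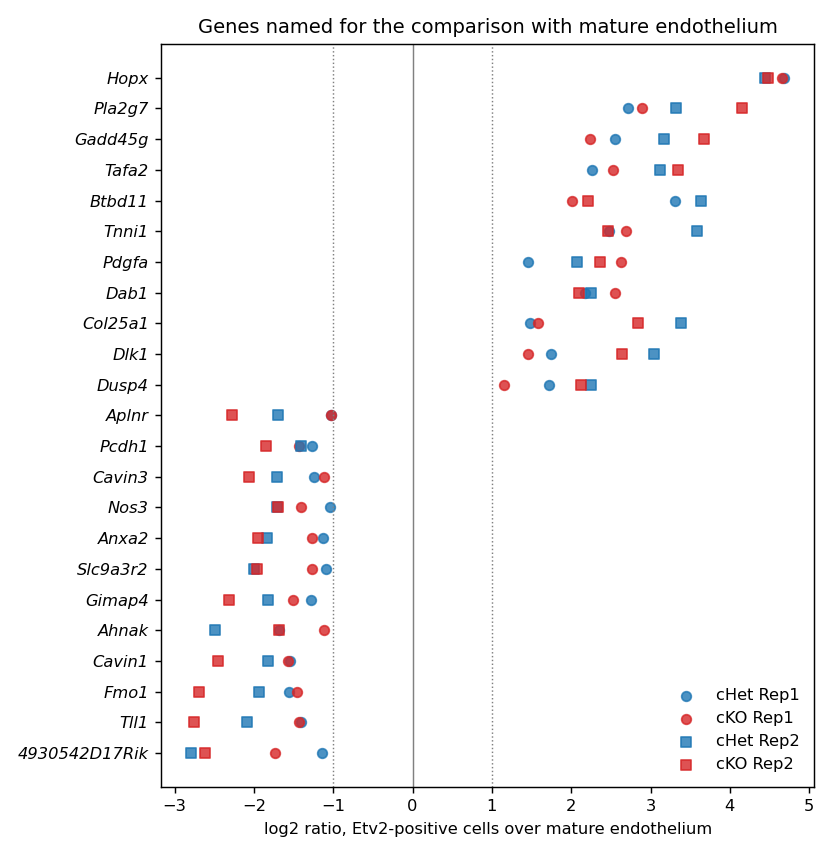
Log2 ratio of TMM-scaled CPM, Etv2-positive over mature endothelial cells (x axis), for the genes named in each direction (y axis), 1 point per library, cHet in blue, cKO in red, Rep1 as circles, Rep2 as squares, dotted lines at -1 and 1. Hopx stands farthest to the right, between 4.44 and 4.69, and 4930542D17Rik farthest to the left by its median, -2.18.

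Several of the named lower genes act at the surface of formed vessels. The caveolar coat genes Cavin1 (median log2 ratio -1.70) and Cavin3 (-1.48) and, outside the named genes, Cav1 were lower, as were Nos3, the endothelial nitric oxide synthase (-1.55), and Aplnr (-1.36). Cavin1 was at 10.7, 9.22, 12.2 and 8.18 CPM against 31.7, 27.8, 43.7 and 45.8 CPM, and averaged 20.3, 10.7 and 1.5 CPM over the Etv2 classes. Tll1, a tolloid-like protease needed for heart septation, was at 35.6, 59.5, 28.2 and 22.9 CPM against 94.5, 159, 120 and 155 CPM (-1.76). Further named genes were 4930542D17Rik (-2.18), the oxygenase Fmo1 (-1.75), the scaffold Ahnak (-1.68), the GTPase Gimap4 (-1.66), the scaffold Slc9a3r2 (-1.61), Anxa2, a membrane-binding annexin (-1.56), and the protocadherin Pcdh1 (-1.42). Among them Ahnak was the one at a higher level in non-endothelial cells (43.7 to 73.9 CPM) than in mature cells (23.0 to 43.3 CPM). With the Etv2-positive cells that had at least 4 mature markers, 21 genes were called lower, 19 of them among the 47, and Tll1, Fmo1 and Cavin1 were the named genes still called.

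By groups of genes, the other endothelial surface and junction genes were mostly lower: 17 of 19 were below mature cells in all 4 libraries and 0 above (22.3% and 23.1% of all genes), with a median log2 ratio of -0.85 against 0.01 for all genes, although Nos3 was the 1 gene past 2-fold. In the 439 cells with at least 4 mature markers, 14 of 19 were below and 2 above (16.1% and 18.0% of all genes). None was then called, and the median was -0.58. Of 23 endothelial transcription factors, 11 were below and 7 above in all 4 libraries. Prox1 was called higher (19.3, 21.9, 49.3 and 61.5 CPM against 8.89, 9.84, 12.4 and 10.0 CPM). Epas1, the hypoxia-inducible HIF2A, and Tfec, an MiT-family factor, were called lower, at median log2 ratios of -1.83 and -2.46. Hhex (0.81) and Foxc2 (0.83) were above and Klf2 (-1.41) below in every library without passing 2-fold in all, and Sox7 was nearly equal (0.12). Where 0.393% of all genes were called lower, the venous list of 6 had 2, Aplnr and the scavenger receptor Stab2, the sprouting list of 14 had 1, Apln, the ligand of Aplnr, and the endocardial list of 8 had 1, Tmem100, a target of BMP signaling in endothelium. When the Etv2-positive cells were limited to those with at least 4 mature markers, Aplnr (log2 ratios of -1.78 to -0.60), Stab2 and Nos3 (-1.17 to -0.66) were no longer called, while Apln, Tmem100, Epas1, Tfec and Prox1 were. The 12 arterial genes had none called, with a median of -0.45. Gja5, an arterial connexin, was at 3.09, 0, 1.02 and 1.64 CPM in Etv2-positive cells and at 3.01, 2.99, 27.0 and 41.9 CPM in mature cells. It was thus lower in Etv2-positive cells in cKO Rep1 and, by more CPM, in Rep2, and near equal in cHet Rep1. The 11 VEGF pathway genes (median 0.06) and the 19 genes of BMP, Wnt, Notch and FGF signals (-0.03) had 0 called in either direction.

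Genes of cardiopharyngeal mesoderm were mostly above the mature cells. Of 19 cardiopharyngeal genes tested, 15 were above mature cells in all 4 libraries and 0 below, with a median log2 ratio of 0.78, and Fgf10, Nkx2-5 and Tcf21 passed 2-fold (1.3% of all genes were called higher, and 23.1% were above in all 4 libraries). In the 439 cells with at least 4 mature markers, 3 of 18 were above, 0 were below and 0 were called, with a median of 0.02, where 18.0% of all genes were above. Fgf10 was at 19.3, 15.3, 21.9 and 21.3 CPM against 5.30, 2.28, 3.15 and 4.76 CPM, and at 26.6 to 59.9 CPM in non-endothelial cells. Isl1 was at 34.2, 31.3, 62.0 and 49.4 CPM against 20.1, 11.4, 33.0 and 35.2 CPM (0.82). Tbx1 itself was at 57.4, 48.2, 51.1 and 44.2 CPM against 37.8, 36.4, 28 and 29.6 CPM (0.57). Of the branchiomeric muscle genes, Msc (median log2 ratio 1.49) was called higher too, though not in the cells with at least 4 mature markers. Of 7 cardiac muscle genes tested, Tnni1 was called higher, and the summed level of the 9 listed was 87.3, 53.2, 446 and 287 CPM in Etv2-positive cells and 39.7, 11.9, 25.1 and 279 CPM in mature cells.

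Several defining blood genes were at or near 0. Runx1, the factor of hemogenic endothelium, was at 1.24, 0.263, 1.53 and 3.27 CPM, below non-endothelial cells (1.95 to 4.89 CPM), and Gfi1, Gfi1b, Ptprc, Slc4a1, C1qa, C1qb and Gp9 had 0 UMIs in Etv2-positive cells. The summed level of 10 erythroid genes was 5.34 to 13.7 CPM, against 7.06 to 18.1 CPM in mature and 105 to 1012 CPM in non-endothelial cells. That of 9 macrophage and platelet genes was 2.94 to 8.95 CPM, against 4.78 to 7.20 CPM in mature cells. The hemogenic and blood progenitor list as a whole was not low, at 195, 242, 316 and 434 CPM summed over 16 genes, against 199 to 435 CPM in mature and 343 to 486 CPM in non-endothelial cells. Mecom made up most of it (125 to 331 CPM), and Kit, the stem cell factor receptor, was at 29.4 to 47.8 CPM. Of this list, 6 of 16 genes had enough counts to be tested and 0 were called. The epithelial list (7.64 to 12.8 CPM) and the neuronal list (4.07 to 21.1 CPM) were below non-endothelial cells (71.7 to 126 and 71.2 to 135 CPM). Mature cells had 5.97 to 29.2 and 21.9 to 83.1 CPM. Cells with Epcam were left out of the Etv2-positive cells alone, so the low epithelial list is set in part by the rule. The neural crest list was above non-endothelial cells (139 to 230 against 60.0 to 91.0 CPM). Of the neural crest list, Sox10 and Foxd3 were at 0, and Ets1, also an endothelial factor, made up most of the sum at 135 to 226 CPM. Their part in the results was not tested. The S phase genes (43) and G2/M phase genes (54) had 0 called, with median log2 ratios of 0.01 and -0.0040, and neither the 13 H3K4 methyltransferase complex genes (0.07) nor the 6 immediate early and stress genes tested (0.13) had any.

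The share of Etv2-positive cells was compared between genotypes within each replicate. It was 3.00% in cHet Rep1 (exact 95% binomial interval 2.59 to 3.45) and 1.70% in cKO Rep1 (1.40 to 2.04), and 1.64% in cHet Rep2 (1.40 to 1.91) and 1.20% in cKO Rep2 (1.02 to 1.41). The cKO library was lower in both replicates, by a log2 ratio of -0.82 (95% -1.17 to -0.48) in Rep1 and -0.45 (-0.78 to -0.12) in Rep2. These intervals cover counting error of cells alone. A cell was selected on at least 1 Etv2 UMI, so the share depends on depth. The cells kept had medians of 19468.5, 23534, 21594 and 17426 UMIs, so cKO was deeper in Rep1 and shallower in Rep2. After thinning to 8000 UMIs per cell, 88, 55, 98 and 112 cells met the rule, and the log2 ratio in Rep1 was -0.78. In Rep2, 160 cHet and 151 cKO cells met the rule before thinning, and 98 and 112 after it. Thinning thus took a larger part of the cHet than of the cKO cells in Rep2, so the Rep1 ratio does not stand for Rep2. Over libraries the shares were 2.32% ± 0.959 (SD, n = 2) in cHet and 1.45% ± 0.351 in cKO, and the cKO Rep1 share exceeded that of cHet Rep2 (exact permutation test, two-sided, p = 0.667, where 0.333 is the smallest possible). Mature cells were lower in cKO in Rep1 (log2 ratio -0.76) and near equal in Rep2 (0.04), so Etv2-positive cells were 37.9%, 36.9%, 26.9% and 20.7% of both populations together. That share differed by a log2 ratio of -0.04 in Rep1 and -0.38 in Rep2. With barcodes of at least 1000 genes the ratio of the share in Rep1 turned to 0.65, and cHet Rep1 was the library with the most deposited barcodes, 37093 against 9307 to 16775. Within the Etv2-positive cells, 31.6% (cHet) and 29.2% (cKO) had 5 or more Etv2 UMIs in Rep1, and 41.9% and 51.7% in Rep2.

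**Figure D4:**
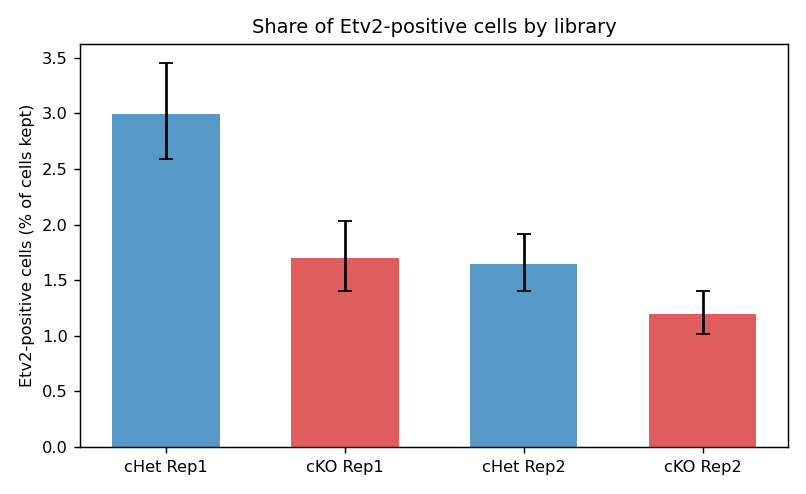
Etv2-positive cells as a percentage of all cells kept (y axis, from 0) in each library, cHet in blue and cKO in red, with exact 95% binomial intervals as error bars that cover counting error only. The bar of cKO is below that of cHet in each replicate (3.00% and 1.70% in Rep1, 1.64% and 1.20% in Rep2), and both Rep2 bars are below that of cHet Rep1.

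Kmt2d, on chromosome 15 (GRCm38, 98831669 to 98871204), was at 17.5 and 25.2 CPM in the cHet libraries and 15.5 and 28.1 CPM in the cKO libraries of Rep1 and Rep2, a log2 difference of 0.01 (SE 0.19) in Etv2-positive cells. These counts do not show where in the gene the reads lay, so this value is no check of the labels. Tbx1 was at 57.4 and 51.1 CPM in cHet and 48.2 and 44.2 CPM in cKO, a log2 difference of -0.23 (SE 0.13) that did not pass the test. In the fit with the replicate as a block (edgeR, Benjamini-Hochberg adjusted p under 0.05), 15 of 11667 genes (0.129%) fell and 27 (0.231%) rose in cKO, 0.36% in all, and 39 of the 42 had the same sign in both replicates. This fit leaves 1 residual degree of freedom among the 4 libraries, the disagreement between both replicates. The call itself therefore favors genes with the same sign in both, and that count is not a separate check. At an unadjusted p under 0.05 there were 735 genes. Without the block, edgeR called 0 genes (43 at an unadjusted p under 0.05). With 3 libraries the block leaves no residual degree of freedom, so the fits without 1 library also had no block and a lone library in 1 genotype, assumed to vary like the other group. They called 0 genes (53 to 139 at an unadjusted p under 0.05). DESeq2 with the block called Mdga2 alone, with 41 genes at an unadjusted p under 0.05. Of the 42 genes, 0 were called in mature cells, where 3 of 12699 genes were.

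Mdga2, on chromosome 12 (GRCm38, 66466060 to 67222549), encodes a GPI-anchored adhesion molecule of the immunoglobulin family. It was at 44.7 CPM in cHet Rep1 and 118 CPM in cKO Rep1, and at 67.4 CPM in cHet Rep2 and 225 CPM in cKO Rep2. Both cKO libraries lay above both cHet libraries, by a log2 difference of 1.59 (SE 0.10, edgeR adjusted p = 4.9e-26). The call was kept under DESeq2 (adjusted p = 2.2e-11) and in 12 of 17 other settings in all. Over the settings tested, adjusted p from edgeR or DESeq2 ran from 4.9e-26 to 0.99996. The call did not pass without the block. The settings without 1 library, also among the 17, held single-replicate values with no test. The log2 difference was 1.39 in Rep1 and 1.74 in Rep2. In mature cells it was at 57.0, 111, 160 and 209 CPM (log2 difference 0.63, edgeR adjusted p = 0.21), and in non-endothelial cells at 14.6, 38.8, 22.2 and 47.1 CPM, higher in cKO in both replicates. The genotype difference in Etv2-positive cells exceeded that in mature cells by 0.99 on the log2 scale (SE 0.15, edgeR adjusted p = 0.0096), a call that was lost with DESeq2 and without cKO Rep1, cHet Rep2 or cKO Rep2.

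Hey1, a Notch target in arterial endothelium, was at 27.4 and 55.4 CPM in cHet and 38.2 and 104 CPM in cKO (log2 difference 0.74, SE 0.13, edgeR adjusted p = 2.3e-04). Mecom, a zinc finger factor of blood stem cells and arterial endothelium, was at 125 and 226 CPM in cHet and 173 and 331 CPM in cKO (0.52, SE 0.08, edgeR adjusted p = 1.0e-05). Neither group of libraries was separate, since cHet Rep2 was above cKO Rep1 for both genes. Itga1, a collagen-binding integrin, was at 37.9 and 80.4 CPM in cHet and 57.1 and 152 CPM in cKO (0.79, SE 0.11, edgeR adjusted p = 1.2e-06). The other named genes that rose were Zic1 (2.40), Stmn2 (1.58), Tbx20 (1.31), Unc13b (1.22), Cdkn1a, the cell cycle inhibitor p21 (1.13), Csn3 (1.12), the neuregulin receptor Erbb4 (0.95), the gelatinase Mmp9 (0.87), Hs3st3a1 (0.87), the adhesion molecule Alcam (0.83), Angpt1, the ligand of Tek (0.80), and Lrrk2 (0.79). Several were sparse, such as Zic1 at 1.44 and 1.27 CPM in the cHet libraries. For several the size differed between replicates. The log2 difference was 1.38 in Rep1 and 0.19 in Rep2 for Alcam, and 2.74 and 0.74 for Tbx20, so these rises came mainly from Rep1. It was 0.06 in Rep1 and 1.39 in Rep2 for Angpt1, 0.27 and 1.26 for Mmp9, 0.49 and 2.78 for Stmn2, 0.68 and 1.40 for Csn3, and 0.47 and 0.92 for Hey1, larger in Rep2. Alcam and Angpt1 turned to -0.15 and -0.0010 when doublets by score were removed. Of the named genes that rose, Zic1, Unc13b, Csn3, Mmp9, Hs3st3a1, Alcam and Hey1 were higher with 5 or more Etv2 UMIs than with 1 in all 4 libraries. Tbx20 was lower, and the rest were mixed. Cells with 5 or more were 31.6% (cHet) and 29.2% (cKO) of Etv2-positive cells in Rep1, and 41.9% and 51.7% in Rep2. The part of this mix in the rises was not tested.

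Of genes that fell, Btbd11 was at 29.8 and 70.2 CPM in cHet and 19.5 and 32.1 CPM in cKO (log2 difference -0.90, SE 0.16, edgeR adjusted p = 1.6e-04), and Col25a1 was at 50.4 and 120 CPM against 30.8 and 85.0 CPM (-0.58). Both were among the genes higher in Etv2-positive than in mature cells. So were Armh4 and Cacna1c, which also fell, and Mmp9 and Lbh, which rose. Lin28a, an RNA-binding protein of early embryonic cells, was at -0.91, the guidance ligand Sema3a at -0.66, Cpq at -0.64 and Plcb1 at -0.46. The others named were Rerg (-1.33), Plcxd3 (-1.21), Sphkap (-1.15), Armh4 (-0.72), Mid1 (-0.70) and the calcium channel Cacna1c (-0.66). Plcxd3 was at -0.19 in Rep1 and -2.16 in Rep2, so its fall came mainly from Rep2, and Sema3a (-0.40 and -0.95) and Ttn (-0.24 and -0.84) were also lower by more there. Mid1 (-1.25 and -0.25), Armh4 (-1.12 and -0.50), Sphkap (-1.89 and -0.79) and Rerg (-1.78 and -0.80) were lower by more in Rep1. Myl3 (-2.44), Actc1 (-1.17) and Ttn (-0.68) encode sarcomere proteins. Myl3 had 0 UMIs in both Rep1 libraries, and Actc1 was at 3.29 CPM in cHet and 5.00 CPM in cKO of Rep1 against 79.6 and 27.5 CPM in Rep2, so the fall came from Rep2. Beside these, the summed cardiac muscle level in Etv2-positive cells was 87.3 and 446 CPM in cHet and 53.2 and 287 CPM in cKO. Actc1 and Ttn were at 1.69 and 0.63, higher in cKO, when limited to cells with at least 4 mature markers.

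**Figure D5:**
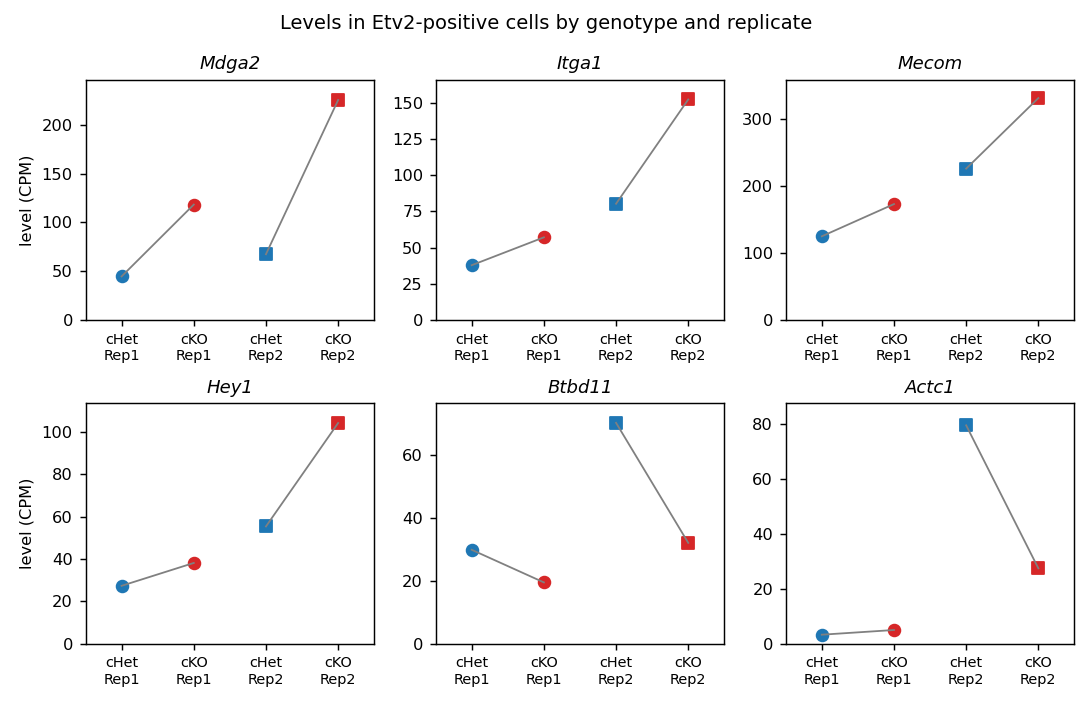
Level in CPM (y axis, from 0, a separate scale for each gene) in the summed Etv2-positive cells of each library for 6 genes called between genotypes, cHet in blue and cKO in red, with a line joining the libraries of 1 replicate. Mdga2 goes from 44.7 to 118 CPM in Rep1 and from 67.4 to 225 CPM in Rep2, while Actc1 has its large drop in Rep2 alone.

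By gene groups, the calls between genotypes, which were 0.36% of all genes tested, were as follows. Of the endothelial transcription factors 1 of 23 (Hey1) rose, of the hemogenic genes 1 of 6 (Mecom), of the endocardial genes 1 of 7 (Tbx20) and of the neuronal genes 1 of 3 (Stmn2), while 2 of 7 cardiac muscle genes (Actc1 and Ttn) fell. The 6 mature markers, 18 other endothelial surface genes, 19 cardiopharyngeal genes, 11 arterial, 5 venous, 13 sprouting, 11 VEGF and 19 signal pathway genes, 13 H3K4 complex genes, 43 S phase and 54 G2/M genes had 0 called by edgeR. Their median log2 differences ranged from -0.13 (venous) to 0.24 (arterial), against 0.00068 for all genes. The 6 genes that selected the Etv2-positive cells (Etv2, Kdr, Tal1, Lmo2, Gata2 and Fli1) had a median of 0.07, which the selection sets in part and which is not read as a result. The difference in genotype effect between Etv2-positive and mature cells passed the edgeR test for 20 of 12646 genes (0.158%), and 9 of them were also among the 42.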

How the data were processed

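Per the labels and file headers, the authors counted reads with Cell Ranger (7.0.1 in the headers of Rep1 and 8.0.1 in those of Rep2; the submitters' notes name 8.0.1 and mm10) and deposited raw UMI counts per gene and barcode, without scaling. The SoupX correction, integration and clustering of the study came later and are not in these counts. Barcodes with at least 3000 genes and at most 10% mitochondrial UMIs were kept, and doublets were left in, since Scrublet's automatic threshold (scanpy 1.11.5) marked 0.015% to 1.74% of barcodes. Removal by score down to the share expected for the kit was an alternative. Counts were summed per library and population.

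The members, gene lists and tests were chosen with earlier results of these data known. The named genes were the 12 with the largest median log2 ratio in each direction among called genes of at least 20 CPM (mean over the 8 sums), up to 15 per direction by size between genotypes, and up to 10 by p for the interaction. Some genes that these rules or lists name are not reported here.

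Ratios to mature cells were taken within a library (TMM, prior count 2) and called past 1 on the log2 scale with the same sign in all 4 libraries. For cKO against cHet, edgeR 4.0.16 was run on the sums (TMM, filterByExpr, quasi-likelihood test, Benjamini-Hochberg adjustment, threshold 0.05), with the replicate as a block because the replicate number marks the kit. Same-numbered libraries deviated together (correlation 0.760 in Etv2-positive and 0.750 in mature cells), and the first principal component (78.7% of the variance) separated the replicates. The interaction was the population by genotype term of a model that also held library, population and population by replicate. That model left few residual degrees of freedom, and the fits without 1 library had no population by replicate term. Tested on simulated data for the comparison of cKO with cHet in Etv2-positive cells (11667 genes), the test recovered 84 of 100 genes changed by 1 on the log2 scale and 41 of 100 changed by 0.5, with 4 false calls. The simulated spread followed edgeR's fitted trend, with no spread of single genes around it. Changed genes were drawn from those above a minimum mean count. These numbers therefore do not measure false calls or recovery in the real data. DESeq2 1.42.0 was an alternative, and phase lists came from Seurat 5.3.0. Gene positions came from GENCODE M21 on GRCm38, and promoter windows from RefSeq. Nothing states that the pooled embryos of a replicate came from separate litters, so p-values speak for these pools alone. With the block, the spread between libraries of 1 genotype goes into the replicate term. Those p-values rest on how far the genotype differences of both replicates disagree, with the spread of each gene drawn toward edgeR's trend. Intervals cover counting error alone. Scripts ran in Python 3.11.15 and R 4.3.3.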

Additional observations from a re-analysis of the deposited data

Results flagged for a closer look

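The effect of genotype differed between Etv2-positive and mature endothelial cells (edgeR interaction test, adjusted p under 0.05) for 20 genes, of which the 10 with the smallest p are given here as the log2 difference in Etv2-positive cells minus that in mature cells. The difference was positive for Cdkn1c, the imprinted cell cycle inhibitor p57 (0.73), Ctnna2, an alpha-catenin (0.88), Mdga2 (0.99), Oxr1 (0.61) and Hey1 (0.96). It was negative for Myl3 (-5.86), Actc1 (-4.42), Myh6 (-7.44), Myl7 (-2.96) and Myl4 (-3.15), all of them genes of heart muscle. Beside the muscle genes, the summed level of 9 cardiac muscle genes was 446 CPM in cHet Rep2 and 287 CPM in cKO Rep2 among Etv2-positive cells, and 25.1 and 279 CPM among mature cells. The part of RNA or doublets from heart muscle cells in this was not tested. With doublets by score removed, the differences of Myl3, Actc1, Myl7 and Myl4 were 1.00, 1.81, 1.02 and 1.55. That of Ctnna2 was then -0.27. Cdkn1c was called in Etv2-positive cells too, with a log2 difference of 0.32 (edgeR adjusted p = 0.015), and Oxr1 with 0.44 (edgeR adjusted p = 0.0018).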

How the results depend on the processing

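The count of genes lower in cKO (15) was 0 with DESeq2, 0 with no filter on low counts, 0 with no replicate block, 0 with barcodes of at least 1000 genes, 0 with at least 2 Etv2 UMIs, 3 with doublets removed, 6 after thinning to 8000 UMIs, and 0 without any one library. The fits without 1 library had no block either, since 3 libraries leave it no residual degree of freedom. Interaction fits without 1 library had no population by replicate term, so they differ from the main model in that too. The count of genes higher in cKO (27) was 1, 1, 0, 1, 3, 6 and 6 in the same order of settings, and 0 without any one library. Both counts rest on the replicate block, and libraries of a replicate share a kit. The interaction count (20) was 1 with DESeq2, 80 with no filter, 50 with no TMM, 35 with at least 1000 genes, 49 with at most 5% mitochondrial UMIs, 13 with at least 2 Etv2 UMIs, 11 after thinning, 79 with mature cells of at least 5 markers, and 0 to 21 without one library (7 without cHet Rep1, 0 without cKO Rep1 or cHet Rep2, 21 without cKO Rep2). The genes higher than in mature cells (155) numbered 86 with at least 10 counts in every sum, 244 with at least 2 Etv2 UMIs and 174 to 250 without one library, and the lower genes (47) numbered 30, 163 and 54 to 92. After thinning, 77 of the 155 and 21 of the 47 genes were still called (146 and 70 in all), and with doublets removed 128 and 34 (230 and 39 in all). The cause was not tested.

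In alternatives chosen after seeing the data, Etv2-positive cells with at least 2 or at least 4 mature markers gave 3 and 1 genes lower in cKO, 22 and 10 higher, 96 and 87 interactions, 55 and 25 genes higher than in mature cells, and 26 and 21 lower. The log2 ratio of shares in Rep1 was 0.65 with at least 1000 genes, a reversal, and -0.039 as a share of Etv2-positive plus mature cells.

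Between genotypes, these log2 differences turned: Actc1 to 1.18 with doublets removed, 1.69 with at least 4 markers and 0.54 in Rep1 alone, against -1.503 in Rep2 alone; Myl3 to 0.20 with at least 4 markers and 0.0 in Rep1 alone, against -2.28 in Rep2 alone; Ttn to 0.30 and 0.63, and Cacna1c to 0.20 and 0.25, with at least 2 and 4 markers; Armh4 to 0.22 thinned and 0.069 with at least 2 markers; Plcxd3 to 0.15 with at least 2 and Plcb1 to 0.026 with at least 4. Alcam turned to -0.15 and -0.16 and Angpt1 to -0.0010 and -0.093, with doublets removed and thinned. Kmt2d, never called, was -0.0075 with at least 1000 genes, -0.094 with doublets removed, -0.093 with at least 2 Etv2 UMIs, -0.055 and -0.089 with at least 2 and 4 markers, and -0.17 in Rep1 alone against 0.17 in Rep2 alone. Of the interactions, with doublets removed Myl3 turned to 1.00, Actc1 to 1.81, Ctnna2 to -0.27, Myl7 to 1.02 and Myl4 to 1.55. Without cHet Rep2, Myl3 turned to 5.18 and Myl4 to 0.60 (down to -6.99 and -3.89 without another library), and with at least 4 markers Myh6 turned to 0.42. The other values for named genes kept their direction, of which 219 genotype values and 49 interaction values no longer passed, and 116 genotype values, from single replicates, had no test of their own. Of 408 ratios to mature cells, 362 moved by less than their spread. Depth limits sparse genes such as Zic1, which had 7 and 5 UMIs in the cHet and 35 and 16 in the cKO libraries.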
